A study of Mus musculus with 6 samples.

Results

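The 37 genes described here make proteins that fold, modify, move or destroy other proteins in the endoplasmic reticulum (ER), or that sense and answer stress in that compartment. They were chosen as a list of ER folding, degradation and stress genes, and each was read at the brightest of its probe sets, by the mean of all 6 arrays. All 37 were found among 18194 genes with a probe set of their own. RNA came from T cells that were isolated spleen by spleen through negative selection, from male C57BL/6 mice 10 weeks old. Of the 6 mice 3 lacked miR-142 (miR-142 KO, here KO) and 3 were wild-type littermates (WT). The labels name no further allele, transgene, Cre driver or treatment for either group, and each array is 1 spleen. The question of the comparison was which transcripts differ in such preparations when this microRNA of the blood lineages is absent.

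Proteins bound for the cell surface or for secretion enter the ER through the Sec61 channel, receive sugars and disulfide bonds, and fold with the help of chaperones. Chains that stay misfolded are carried back to the cytosol and degraded, which is known as ER-associated degradation. When misfolded proteins build up, the sensors IRE1 (gene Ern1), PERK (Eif2ak3) and ATF6 start the unfolded protein response. IRE1 splices Xbp1 mRNA to make an active transcription factor, ATF6 is cut to release another, and PERK slows translation. In T cells the response is drawn on during activation, and cells that secrete much protein, such as plasma cells and granulocyte precursors, hold large amounts of ER.

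A DNA element through which ATF6 and XBP1 act with the factor NF-Y, the ER stress response element (ERSE), connects some of the chaperone genes. Its letters, CCAAT and CCACG with 9 bases of any kind between them, were searched on both strands of RefSeq promoter windows (GRCm38.p6, from 250 bases before to 50 bases after each start). Windows were listed for 31 of the 37 genes, and not for Hyou1, Manf, Derl1, Atf6, Sec61a1 and Ostc. The element stood in the windows of 9 of these 31 genes, against 37 of 27025 genes overall (0.137%). A list of stress genes is partly known through this element, so the share is a description. The element ended before the start in all 9 genes, beginning 65 bases before it in Hspa5, 44 in Syvn1 and 201 in Ero1b, and Hsp90b1 held it at 212 and at 107 bases before its start. The sites are shown with 20 bases on either side because they hold the element these 9 genes share. Of the 9 genes 7 rose in KO, Dnajc3 fell and Ero1b was not called. Of the 22 with a window but no ERSE 10 rose and 3 fell, and of all 14453 measured genes with a window 19.3% rose and 18.9% fell. Whether the element goes with the rise was not tested. Each is written 5′ to 3′ on the strand of its gene. Capitals mark the element, which reads as CGTGG to ATTGG where it lies on the opposite strand.
Hspa5, chr2:34772005-34772063 on the plus strand: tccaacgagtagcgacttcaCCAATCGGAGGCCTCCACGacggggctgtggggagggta
Hsp90b1, chr10:86705618-86705676 on the minus strand: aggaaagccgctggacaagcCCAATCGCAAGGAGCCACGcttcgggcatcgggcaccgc
Hsp90b1, chr10:86705513-86705571 on the minus strand: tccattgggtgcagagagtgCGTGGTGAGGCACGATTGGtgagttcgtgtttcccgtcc
Calr, chr8:84847055-84847113 on the minus strand: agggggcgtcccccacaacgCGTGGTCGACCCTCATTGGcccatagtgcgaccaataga
Canx, chr11:50325780-50325838 on the minus strand: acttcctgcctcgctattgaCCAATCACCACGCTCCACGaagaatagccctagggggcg
Creld2, chr15:88819500-88819558 on the plus strand: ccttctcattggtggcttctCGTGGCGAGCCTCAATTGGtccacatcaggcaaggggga
Pdia6, chr12:17266471-17266529 on the plus strand: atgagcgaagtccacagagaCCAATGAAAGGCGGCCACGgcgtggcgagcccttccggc
Syvn1, chr19:6046512-6046570 on the plus strand: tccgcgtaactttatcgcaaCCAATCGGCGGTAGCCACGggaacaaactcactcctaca
Dnajc3, chr14:118937807-118937865 on the plus strand: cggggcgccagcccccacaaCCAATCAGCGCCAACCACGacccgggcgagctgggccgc
Ero1b, chr13:12565662-12565720 on the plus strand: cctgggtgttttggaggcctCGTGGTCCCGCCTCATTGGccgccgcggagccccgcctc

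The related element ERSE-II, ATTGG and CCACG with 1 base of any kind between them, stood in the windows of 12 of 27025 genes (0.0444%), 2 of them on the list, Herpud1 and Dnajb11. Neither gene was called. The site of Herpud1, which began 52 bases before its start, is given with the element in capitals. It shares the letters CCACG with the ERSE, and those 5 letters alone were in the windows of 27 of the 31 genes and of 35.5% of all genes.
Herpud1, chr8:94386357-94386407 on the plus strand: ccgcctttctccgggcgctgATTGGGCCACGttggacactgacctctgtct

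Sdf2l1, which rose most among the 11 listed chaperones, had CCACG at 3 places of the 250 bases before its start and CCAAT at 3, counted on both strands, but not at the spacing of either element. These bases are shown with both pentamers in capitals, to set the gene beside those with the element. No match says only that the searched letters are not in this window.
Sdf2l1, chr16:17132384-17132633 on the minus strand: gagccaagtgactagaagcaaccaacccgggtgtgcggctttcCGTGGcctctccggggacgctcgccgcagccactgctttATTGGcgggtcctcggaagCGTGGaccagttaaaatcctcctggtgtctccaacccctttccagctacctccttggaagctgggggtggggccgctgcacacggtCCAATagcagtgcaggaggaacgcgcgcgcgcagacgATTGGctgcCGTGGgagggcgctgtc

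The deposited values are log2 probe-set intensities, so a difference of 1 stands for a 2-fold change. Differences are KO minus WT, and a gene was said to have risen or fallen where the limma p adjusted over all 45037 probe sets was below 0.05. By this rule 20 of the 37 genes rose, 4 fell and 13 were not called. Among all 18194 genes 18.6% rose and 18.6% fell, 37.2% in all. Of the 7643 genes whose mean was at least the lowest mean of the 37, which was 7.83, 27.8% rose and 29.2% fell. The median difference of the 37 genes was 0.41, against -0.06 over all genes and -0.01 over those 7643. The KO arrays all exceeded the WT arrays for 24 of the 37 genes and all fell short of them for 4, where the shares over all genes were 24.1% and 29.7%. The largest differences ran from 2.45 for Pdia5 down to -1.07 for Edem1. Of the 20 rises 12 kept their call in all 17 alternatives of processing run for each gene, and of the 4 falls Edem1 did. Of the 13 genes not called 11 passed in some alternative.

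**Figure D1:**
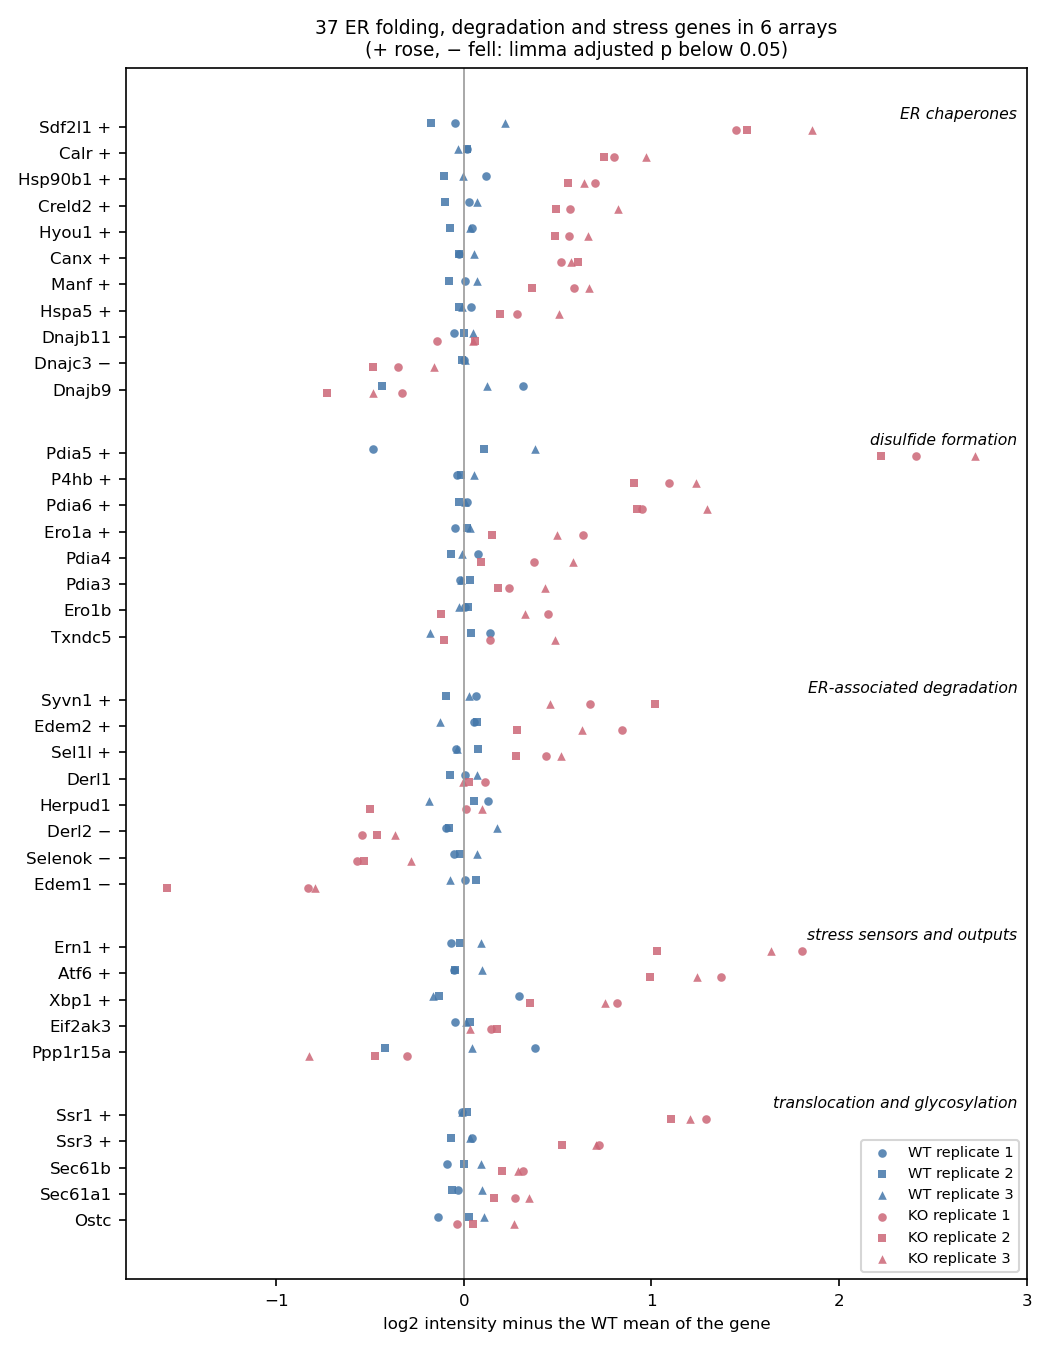
Log2 intensity of each of the 37 genes in each array, minus the gene's WT mean, with WT arrays in blue, KO arrays in red and a symbol for each replicate number; genes are grouped by role, and + or − marks those that rose or fell. The KO points of Pdia5, Sdf2l1, Ern1, Atf6, Ssr1, P4hb and Pdia6 lie well to the right of the WT points, those of Edem1 to the left, and KO replicate 2 is the lowest KO array for 27 of the 37 genes.

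**Figure D2:**
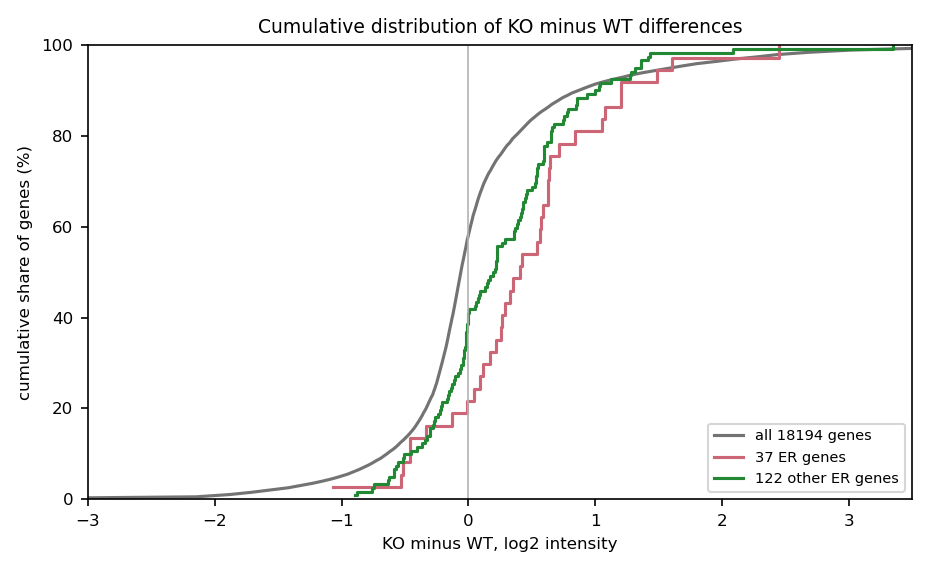
Cumulative share of genes against KO minus WT difference on the log2 scale, for the 37 genes (red), 122 further ER genes (green) and all 18194 genes (grey). The red curve crosses 50% at a difference of 0.41, the green one at 0.20 and the grey one at -0.06.

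T cell markers were bright in both groups, in which the 12 measured ones averaged 12.01 to 12.06 (WT arrays) and 9.25 to 10.62 (KO arrays). All 12 fell, and markers of other blood cells rose, which concerns every result given here. The 11 markers of neutrophils and their precursors all rose, from list means of 6.36 to 7.54 in WT to 11.19 to 13.48 in KO. Of 13 markers of mast cells, basophils and eosinophils 12 rose, from 5.98 to 6.10 in WT to 9.78 to 10.25 in KO. Monocyte and macrophage markers rose for 8 of 9 genes, erythroid markers for 9 of 9, dendritic cell markers for 5 of 9 and megakaryocyte markers for 5 of 6. B cell markers rose for 1 of 11 genes and fell for 1, and NK cell markers rose for 1 of 7 and fell for 5. RMA gives no marker a value of 0. The part of these cells in the ER gene differences was not tested, and in such a bulk sample fewer cells of a type and less RNA per cell cannot be told apart. Transcripts of Mir142 fell 3.98-fold (limma adjusted p = 6.6e-05), where the labels do not say whether the probe set lies in the deleted part. KO replicate 1 stood apart in its 18S ribosomal controls, 7.86 against 9.15 and 9.19 in the other KO arrays. As a measure of RNA quality, the 3' end of Actb exceeded its 5' end by 0.16 to 0.23 in WT and 0.32 to 0.40 in KO, whose part in the ER gene differences was not tested either.

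**Figure D3:**
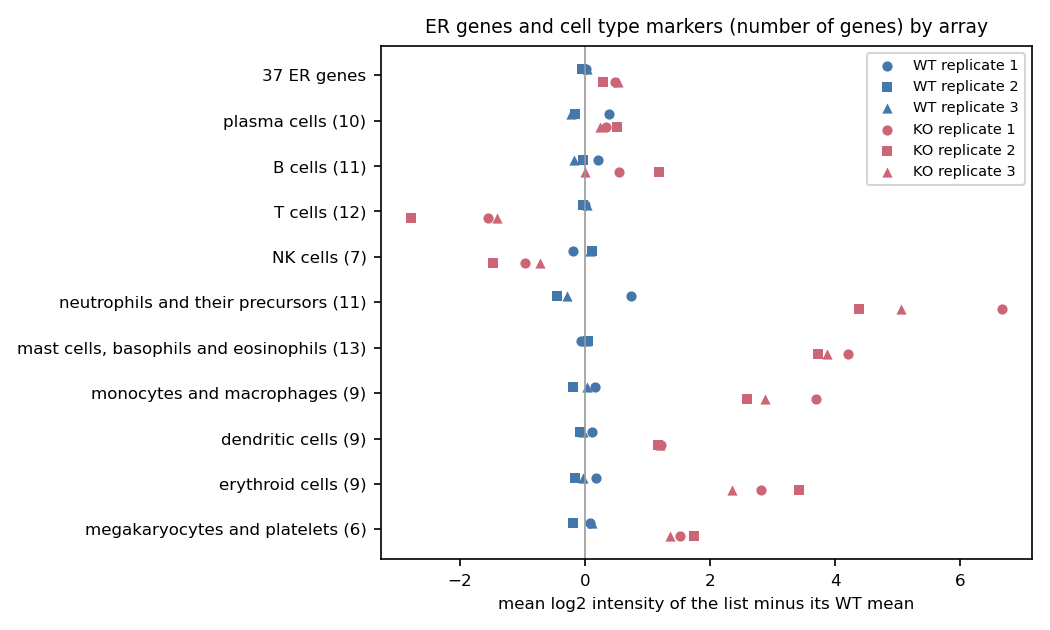
Mean log2 intensity of the 37 ER genes and of 10 lists of cell type markers in each array, minus the list's WT mean; the number of genes per list is in parentheses. The ER genes moved by 0.43 on average, neutrophil markers by 5.37 and T cell markers by -1.91. WT replicate 1 is the highest WT array for plasma cell, B cell, neutrophil, monocyte, dendritic cell and erythroid markers.

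Of the 11 chaperones and co-chaperones 8 rose and 1 fell, with a median difference of 0.56 (over all genes 18.6% each way). Of the 7643 brighter genes 27.8% rose and 29.2% fell. Sdf2l1, a partner of the ER Hsp70 system, measured 9.43, 9.30 and 9.69 in the WT arrays and 10.92, 10.98 and 11.33 in the KO arrays. All KO values lay above all WT values, and the 3.04-fold rise (1.60 ± 0.15, moderated SE, n = 3 per group, limma adjusted p = 0.00027) was the largest among the 11 listed chaperones. Calr, the lectin chaperone calreticulin, measured 12.40, 12.40 and 12.35 in WT and 13.18, 13.13 and 13.36 in KO. It rose 1.79-fold, and its 2 other probe sets rose too, by 0.98 and 1.01 (over all probe sets 13.9% rose and 15.5% fell). Canx, the membrane-bound partner calnexin, stood at 12.23, 12.24 and 12.32 in WT and at 12.78, 12.87 and 12.83 in KO, a 1.48-fold rise. Thus both lectin chaperones of the glycoprotein folding cycle rose, with no overlap between the groups. Such a separation upward was found for 24.1% of all genes.

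Hsp90b1, the ER member of the Hsp90 family, measured 12.08, 11.85 and 11.96 in WT and 12.66, 12.52 and 12.60 in KO, a 1.55-fold rise. Hyou1, which exchanges nucleotide on the ER Hsp70 protein, measured 9.40, 9.28 and 9.39 against 9.92, 9.84 and 10.02, a rise of 0.57 ± 0.09. At its brightest probe set without the suffix _s_at or _x_at Hyou1 differed by 0.56 and was not called. Creld2 and Manf, both ER-resident proteins induced by stress, rose 1.54-fold and 1.45-fold. Creld2 measured 9.02, 8.89 and 9.06 in WT and 9.56, 9.48 and 9.81 in KO. Manf measured 11.43, 11.35 and 11.50 against 12.01, 11.79 and 12.09. In all 4 genes the lowest KO array lay above the highest WT array, as in 24.1% of all genes.

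Hspa5, which encodes BiP, the central Hsp70 chaperone of the ER and the usual gauge of the unfolded protein response, differed little. It measured 12.84, 12.77 and 12.79 in WT and 13.09, 13.00 and 13.31 in KO. The 1.26-fold rise (0.33 ± 0.10) was close to the threshold (limma adjusted p = 0.049). The call was lost when any array but KO replicate 2 was left out, with differences of 0.24 to 0.35. Of its 2 other probe sets 1 rose by 0.60 and 1 differed by 0.31 without a call.

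The list held 3 J-domain co-chaperones of BiP, of which 1 fell and 2 were not called (18.6% of all genes fell). Among the further ER genes the J-domain protein Dnajc10 rose by 0.41 and Dnajc1 fell by 0.41. The call of Dnajc1 was lost with median centring (-0.39) and under scaling to hybridization controls (-0.042). Dnajc3, also known as p58IPK, which restrains PERK and carries clients to BiP, measured 11.35, 11.34 and 11.35 in WT and 11.00, 10.86 and 11.19 in KO. Its fall of 0.33 ± 0.10 (limma adjusted p = 0.047) was not called when any array but KO replicate 3 was left out (-0.33 to -0.25), and 4 other probe sets, at -0.27 to 0.34, were not called. Scaling to hybridization controls turned it to 0.035. Dnajb9, a regulator of IRE1, differed by -0.51 ± 0.20 without a call, with 11.04, 10.29 and 10.85 in WT and 10.40, 10.00 and 10.24 in KO. Without WT replicate 2, the lowest WT array, it fell by 0.73 (limma adjusted p = 0.0179). Dnajb11 stood at 10.57 to 10.67 in WT and 10.47 to 10.68 in KO, a difference of -0.01 whose sign turned in 4 alternatives.

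Enzymes of disulfide formation rose for 4 of 8 genes and fell for 0, with a median difference of 0.39 (over all genes 18.6% each way). Every KO array exceeded every WT array for 6 of the 8, and for 24.1% of all genes. All 8 differences were above 0, so that none was lower at an unadjusted p below 0.05 either. Pdia5, a less studied member of the protein disulfide isomerase family, had the largest rise of the 37 genes. It measured 6.39, 6.98 and 7.25 in WT and 9.28, 9.10 and 9.60 in KO. The 5.47-fold rise (2.45 ± 0.23, limma adjusted p = 0.000299) far exceeded the spread within the groups, although the WT arrays themselves spanned more than the KO arrays. P4hb, the founding protein disulfide isomerase, measured 11.03, 11.05 and 11.12 in WT and 12.16, 11.97 and 12.30 in KO, a 2.11-fold rise. Pdia6, which also acts on IRE1 and PERK, measured 10.19, 10.14 and 10.18 against 11.12, 11.09 and 11.46, a 2.08-fold rise. A dim second probe set of Pdia6 differed by 0.05 and was not called.

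The oxidases that feed disulfide bonds to these isomerases differed less than Pdia5, P4hb and Pdia6, each gene at its brightest probe set. Ero1a, listed as Ero1l, measured 8.74, 8.81 and 8.82 in WT and 9.42, 8.94 and 9.29 in KO. Its rise of 0.43 ± 0.13 (limma adjusted p = 0.047) was lost when any array but KO replicate 2 was left out (0.32 to 0.44), but its 2 other probe sets rose by 0.81 and 0.59. Ero1b, listed as Ero1lb, differed by 0.22 with overlapping groups, and was called at 0.39 without KO replicate 2. Its other probe sets disagreed, 1 rising by 0.93 and 1 differing by -0.28. Pdia3, which works with calnexin and calreticulin, measured 12.17, 12.22 and 12.17 in WT and 12.43, 12.37 and 12.62 in KO, a difference of 0.29 (limma adjusted p = 0.0582). Pdia4 measured 9.67, 9.52 and 9.59 against 9.97, 9.69 and 10.18, a difference of 0.35 (limma adjusted p = 0.0915). For neither gene did the groups overlap, and 24.1% of all genes were likewise higher in every KO array. KO replicate 2 lay close to the WT arrays in Pdia4. Without KO replicate 2 Pdia3 rose by 0.34 and Pdia4 by 0.48. The second probe set of Pdia3 rose by 0.33, and that of Pdia4 differed by -0.05 without a call. Txndc5, an isomerase abundant in plasma cells, differed by 0.17 ± 0.16 with overlapping groups, while its second probe set rose by 0.37.

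**Figure D4:**
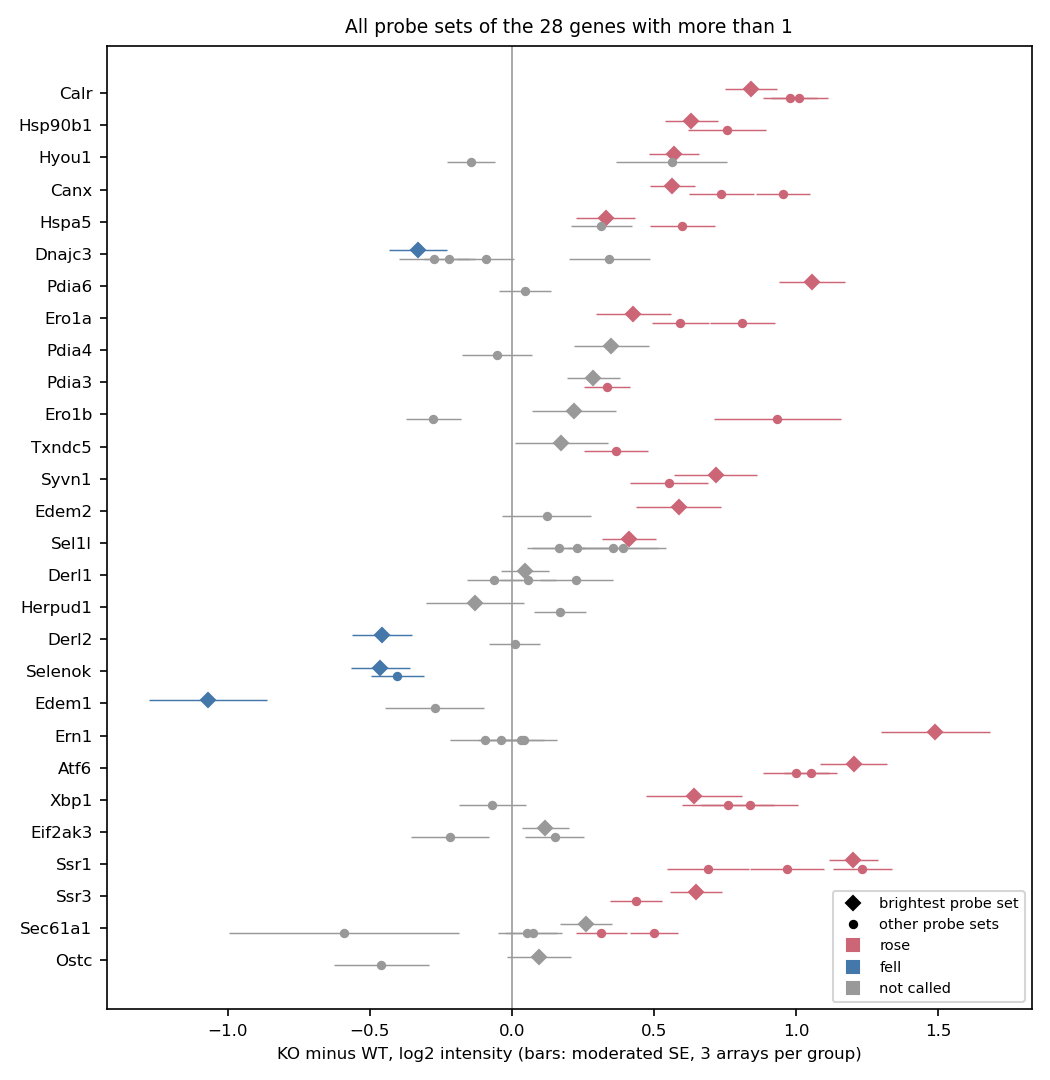
KO minus WT difference (log2) with its moderated SE for every probe set of the 28 genes that have more than 1, 3 arrays per group; diamonds are the brightest probe sets and circles the others, in red where the probe set rose, blue where it fell and grey where it was not called. For 10 of the 15 genes that rose at a diamond at least 1 circle rose too, as for Calr, Atf6, Ssr1 and Canx, whereas the 4 circles of Ern1 lie near 0.

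Of the 8 genes of ER-associated degradation 3 rose and 3 fell, with a median of -0.04. The shares over all genes were 18.6% each way, and 27.8% and 29.2% over the 7643 brighter ones. Syvn1, the ubiquitin ligase HRD1 at the centre of the pathway, measured 9.14, 8.98 and 9.10 in WT and 9.74, 10.09 and 9.53 in KO. It rose 1.64-fold (0.72 ± 0.15, limma adjusted p = 0.0091), and a second probe set rose by 0.55. Sel1l, the adaptor that keeps HRD1 stable, measured 9.73, 9.84 and 9.73 against 10.21, 10.04 and 10.29. Its rise of 0.41 ± 0.10 was not called without WT replicate 1 (0.39) or KO replicate 3 (0.36), and its 4 other probe sets, at 0.16 to 0.39, were not called. For the ligase as for its adaptor every KO array exceeded every WT array, as for 24.1% of all genes.

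Edem1 and Edem2, lectin-like proteins that help trim mannose from misfolded glycoproteins and so mark them for removal, went opposite ways. Edem1 measured 10.52, 10.58 and 10.44 in WT and 9.68, 8.93 and 9.72 in KO, a 2.10-fold fall (-1.07 ± 0.21, limma adjusted p = 0.0073). Its second probe set differed by -0.27 ± 0.18 and was not called. Edem2 measured 9.20, 9.21 and 9.02 in WT and 9.99, 9.43 and 9.77 in KO, a rise of 0.59 ± 0.15. That call was lost when any array but KO replicate 2 was left out (0.46 to 0.62). KO replicate 2 was the lowest KO array for Edem1 and for Edem2.

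Derl2, a membrane protein of the retrotranslocation channel, fell by 0.46 ± 0.11, from 10.49, 10.50 and 10.76 in WT to 10.04, 10.12 and 10.22 in KO. Without KO replicate 1 the difference was -0.41 and not called (limma adjusted p = 0.0525), and its second probe set differed by 0.010. Selenok, listed as Selk, a selenoprotein that binds the Derlin proteins, fell by 0.46 ± 0.10, and its second probe set fell by 0.40. It measured 11.79, 11.82 and 11.91 in WT and 11.27, 11.31 and 11.56 in KO. Derl1 and Herpud1, a further Derlin and a scaffold of the HRD1 complex, differed by 0.05 and -0.13, with overlapping groups. Under scaling to hybridization controls Edem1 remained called as lower, and Derl2 and Selenok did not.

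Among the stress sensors and their outputs, Ern1, Atf6 and Xbp1 rose, Eif2ak3 and Ppp1r15a were not called, and the median difference was 0.64. Of all genes 18.6% rose, and of the 7643 brighter ones 27.8%. Atf6 measured 7.18, 7.19 and 7.33 in WT and 8.60, 8.22 and 8.48 in KO. It rose 2.30-fold (1.20 ± 0.12, limma adjusted p = 0.00034), and its 2 other probe sets rose by 1.00 and 1.05. Ern1, which encodes the kinase and RNase IRE1 alpha, measured 7.49, 7.54 and 7.65 in WT and 9.36, 8.59 and 9.19 in KO. This 2.81-fold rise (1.49 ± 0.19, limma adjusted p = 0.0012) rested on its brightest probe set. The 4 other probe sets of Ern1 differed by -0.09 to 0.04 and were not called, 3 of them at mean intensities below 5.77, the median over all probe sets.

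Xbp1, the transcription factor whose mRNA IRE1 splices, measured 11.74, 11.32 and 11.28 in WT and 12.26, 11.80 and 12.20 in KO. The groups did not overlap, though WT replicate 1 and KO replicate 2 were close (24.1% of all genes were higher in every KO array). Its 1.56-fold rise (0.64 ± 0.17, limma adjusted p = 0.0273) kept its call without WT replicate 1 or KO replicate 2 (0.79 and 0.78) and lost it without any of the 4 others (0.55 to 0.58). Of its 3 other probe sets 2 rose, by 0.76 and 0.84. These probe sets give the total transcript level, and the spliced share was not analysed here. Xbp1 is also a gene of plasma cells. Of 10 plasma cell markers Sdc1 and Ell2 rose by 1.21 and 1.85, Prdm1 and Slamf7 fell by 1.19 and 0.65, and 6 were not called. Their mean was 8.56, 8.02 and 7.96 in the WT arrays and 8.51, 8.69 and 8.42 in the KO arrays. WT replicate 1 was highest among WT arrays for these markers as for Xbp1. It was also highest for the B cell, neutrophil, monocyte, dendritic cell and erythroid lists. Among KO arrays replicate 2 was highest for the plasma cell markers and lowest for Xbp1. The part of plasma cells in the Xbp1 difference was not tested.

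The branch that acts through PERK showed smaller differences at these genes. Eif2ak3, the kinase itself, measured 8.63, 8.71 and 8.69 in WT and 8.82, 8.86 and 8.71 in KO, a difference of 0.12 ± 0.08 (limma adjusted p = 0.34). Ppp1r15a, or GADD34, which directs the phosphatase that restores translation, measured 11.14, 10.34 and 10.81 in WT and 10.46, 10.29 and 9.94 in KO. Its difference of -0.53 ± 0.22 was not called, and without WT replicate 2 it fell by 0.74 (limma adjusted p = 0.0377). Both groups spread widely for this gene and overlapped. Whether the PERK branch differs from the others was not tested.

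Genes of protein entry and N-glycosylation rose for 2 of 5 and fell for 0, with a median of 0.27 and no difference below 0. Of all genes 18.6% rose and 18.6% fell, and of the 7643 brighter ones 27.8% and 29.2%. Ssr1, the alpha subunit of the translocon-associated protein complex, measured 11.02, 11.05 and 11.02 in WT and 12.32, 12.13 and 12.24 in KO. The 2.30-fold rise (1.20 ± 0.09, limma adjusted p = 0.0001) had the smallest adjusted p of the 37 genes, and all 3 other probe sets of Ssr1 rose, by 0.69 to 1.23. Ssr3, the gamma subunit of the same complex, measured 11.23, 11.12 and 11.22 against 11.91, 11.71 and 11.89, a 1.57-fold rise that a second probe set shared at 0.44. Sec61b and Sec61a1 are subunits of the Sec61 channel itself. Sec61b measured 12.48, 12.58 and 12.66 in WT and 12.89, 12.78 and 12.86 in KO, a difference of 0.27 (limma adjusted p = 0.0572). Sec61a1 measured 11.77, 11.74 and 11.90 against 12.08, 11.97 and 12.15, a difference of 0.26 (limma adjusted p = 0.0739). Both lacked overlap between the groups without passing the threshold, and 24.1% of all genes were likewise higher in every KO array. Of 5 other probe sets of Sec61a1 2 rose, by 0.31 and 0.50. Ostc, a subunit of the oligosaccharyltransferase, differed by 0.09 with overlapping groups.

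The 127 further ER genes, listed from general knowledge, were measured for 122, of which 51 rose and 18 fell, with a median difference of 0.20. Over all genes 18.6% rose and 18.6% fell, and over the 7643 brighter ones 27.8% and 29.2%. Chaperones and folding factors rose for 11 of 18 and fell for 2. Fkbp11, a prolyl isomerase of secretory cells, rose by 3.35 ± 0.22 from 5.53 ± 0.30 (SD) to 8.88 ± 0.38, although at its brightest probe set without the suffix _s_at or _x_at it differed by 0.00014 and was not called. The calcium-binding protein Nucb1 rose by 1.36, the prolyl isomerase Fkbp2 by 1.13 and the Hsp70 relative Hspa13 by 1.04. Oxidoreductases rose for 6 of 13 and fell for 2. The ER peroxiredoxin Prdx4, which oxidises disulfide isomerases, rose by 1.42 ± 0.16, Erp29 by 1.31 and Tmx4 by 0.66, whereas the peroxidase Gpx7 fell by 0.87, a call lost under scaling to hybridization controls.

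Among 24 further genes of degradation and glycan trimming 7 rose and 4 fell, with a median of -0.03 (over all genes 18.6% each way). Mogs, the glucosidase that starts glycan trimming, rose by 0.68 and Nploc4, a cofactor of the extracting ATPase Vcp, by 0.66. Ngly1, which strips glycans from extracted chains, fell by 0.76 and Herpud2 by 0.57, the second not under scaling to hybridization controls. Of 19 further sensors, proteases and stress outputs 9 rose and 4 fell. Asns, the asparagine synthetase and a target of ATF4, rose by 2.09 ± 0.19 from 8.28 ± 0.18 (SD) to 10.36 ± 0.35. The stress-induced regulators Nupr1 and Atf3 rose by 1.29 and 1.28, while the factor Creb3 fell by 0.89. Other genes of the ATF4 branch, named after their values were seen, differed in direction. Ddit3 (CHOP) fell by 0.51 and its target Trib3 by 0.46, calls lost under scaling to hybridization controls. Atf4 itself differed by -0.11 without a call. With median centring Sesn2 rose by 0.40 (limma adjusted p = 0.018), and Chac1 differed by 0.46 without a call (limma adjusted p = 0.0875). Under scaling to hybridization controls, where 42.8% of all genes rose, Sesn2 and Chac1 rose by 0.75 and 0.80 (limma adjusted p = 0.00151 and 0.0145).

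Genes of translocation and glycosylation beyond the 5 above rose for 11 of 27 and fell for 4 (over all genes 18.6% each way). The oligosaccharyltransferase subunits Rpn1, Ddost and Rpn2 rose by 0.93 ± 0.10, 0.86 ± 0.08 and 0.78 ± 0.10, and Ssr2, the beta subunit of the complex of Ssr1 and Ssr3, by 1.00 ± 0.10. Other oligosaccharyltransferase subunits, named after their values were seen, differed in direction. The catalytic subunits Stt3a and Stt3b rose by 0.60 and 0.53 and Magt1 by 0.60. Tusc3 fell by 0.64 and Dad1 by 0.28, the first not called and the second at 0.087 under scaling to hybridization controls. The call of Dad1 was also lost with median centring, and Ost4 and Krtcap2 were not called. The groups did not overlap for Rpn1, Ddost, Rpn2 and Ssr2, the 4 called genes of this list with the largest differences. Among all genes every KO array exceeded every WT array for 24.1%. Thus Ssr1, Ssr2 and Ssr3, 3 subunits of the translocon-associated protein complex, all rose.

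The mean of the 37 genes differed more between the genotypes than within either. It was 10.42, 10.36 and 10.44 in the WT arrays and 10.88, 10.70 and 10.94 in the KO arrays. KO replicate 2, the lowest KO array for 27 of the 37 genes, also had the lowest T cell marker mean, 9.25 against 10.49 and 10.62, and the lowest neutrophil marker mean, 11.19 against 13.48 and 11.86. Its means of erythroid and B cell markers, 10.98 and 7.72, were the highest of the KO arrays. Measured against the gene's WT mean, the median of the 37 genes was 0.45, 0.20 and 0.51 in the KO arrays and -0.02 to 0.03 in the WT arrays. Without KO replicate 2, 23 of the 37 genes rose and 3 fell, and without KO replicate 1, 16 rose and 2 fell. The share of these arrays' cell make-up in the order was not tested.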

How the data were processed

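RNA of splenic T cells was amplified and hybridized to Affymetrix 1-colour arrays, 3 KO and 3 WT, per the labels' protocols. The deposited values are log2 intensities that the authors made with RMA (version not given), per the submitters' processing notes, and they were used unchanged. RMA gives no detection calls, and differences of dim probe sets are understated. After 64 array controls were set aside, 45037 of 45101 probe sets entered the test. The platform annotation gave 1 gene for 34945, several for 932 and did not list 9160, and each of 18194 genes was taken at its brightest probe set. Of the 37 genes 6 were at probe sets ending in _s_at or _x_at, which can cross-hybridise. R 4.3.3 and limma 3.58.1 (lmFit, eBayes, no trend) fitted genotype, with two-sided p values adjusted by Benjamini-Hochberg over all probe sets. The code was tested on simulated data. The number of arrays limits the precision.

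The genes and lists were chosen with earlier results of these data known. Every listed gene is named, with all arrays' values for those past the threshold and for the stress sensors and outputs, and of each further list up to 4 genes past the threshold with the largest differences. Alternatives were scaling to 18 hybridization controls, median centring, repeated quantile normalization, a filter below 5.77, an intensity trend with robust fitting, a block for the replicate number, array weights, an added minimum of 1.5-fold, a threshold of 0.10, other probe sets of a gene or their mean, and the omission of each array.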

Additional observations from a re-analysis of the deposited data

How the results depend on the processing

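Over the 37 ER genes, the number that rose was within 1.5 times of 20 in every alternative, from 14 with a minimum of 1.5-fold, where 13.5% of all genes rose, to 30 with scaling to hybridization controls, where 42.8% of all genes rose and 7.22% fell, and 15 to 23 over the arrays left out one by one. The number that fell was less stable: 1 of 4 remained with scaling to hybridization controls or with the 1.5-fold minimum and 2 when probe sets of a gene were averaged, with a range of 2 to 5 over the arrays left out. Scaling to hybridization controls moved the median of all genes from -0.06 to 0.31 and that of the 37 genes to 0.78. It shifts all genes of an array by the same amount, so the distance of 0.47 between these medians is kept by construction. Of the probe sets called under this scaling 88.1% were higher (47.2% as deposited). Of the further ER genes 2 fell with that scaling and 7 with the 1.5-fold minimum, where 32 rose and 8307 probe sets changed in place of 13228. The hybridization controls averaged 10.10 to 10.30 in the WT arrays and 9.80 to 9.91 in the KO arrays. Scaling to them therefore raises every KO minus WT difference by the same amount. The 1.5-fold minimum lowers counts by its construction. Why the controls differ, and the cause of the other changes, was not tested.

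Some small differences changed sign. With scaling to hybridization controls Dnajb11 stood at 0.35, Dnajc3 at 0.035 and Herpud1 at 0.24. Dnajb11 was 0.0079 with median centring, 0.013 without WT replicate 3 and 0.054 without KO replicate 1, in a range of -0.048 to 0.054 over the arrays left out. Herpud1 was 0.020 with the mean of its probe sets and 0.055 without KO replicate 2, Ostc -0.18 with the mean of its probe sets, and Derl1 -0.015 after repeated quantile normalization. Other probe sets of opposite sign, none called, gave -0.14 for Hyou1, 0.34 for Dnajc3, -0.052 for Pdia4, -0.28 for Ero1b, 0.17 for Herpud1, -0.062 for Derl1, 0.010 for Derl2, -0.068 for Xbp1, -0.039 and -0.094 for Ern1, -0.22 for Eif2ak3, -0.59 for Sec61a1 and -0.46 for Ostc.

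The labels link same-numbered arrays by nothing but the number. Their deviations from the group means correlated at 0.10, -0.24 and -0.20 across probe sets, against -0.16 to 0.27 for differently numbered arrays. Deviations from a mean of 3 arrays depend on each other, so these values cannot show whether mice were paired. With the replicate number as a block 17 of the 37 genes rose and 4 fell, and 10413 probe sets changed. Hspa5, Ero1a, Sel1l and Dnajc3 were not called and Dnajb9 was.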

Other observations

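Carriers between the ER and the Golgi apparatus, which take folded proteins onward and bring escaped chaperones back, rose for 7 of 21 measured genes and fell for 2 (median 0.16). The shares over all genes were 18.6% each way. Lman1, a lectin receptor for glycoproteins leaving the ER, rose by 1.44 ± 0.08 (moderated SE, n = 3 per group) from 9.59 ± 0.04 (SD) to 11.03 ± 0.05. Kdelr2, a receptor that returns chaperones bearing a KDEL-like tail, rose by 1.37 ± 0.09 from 10.24 ± 0.09 (SD) to 11.61 ± 0.08. The fusion protein Bet1 and the coat subunit Sec23a rose by 0.79 and 0.62. In none of the 4, named for the largest differences past the threshold, did the groups overlap. Among all genes every KO array exceeded every WT array for 24.1%. In the same arrays neutrophil markers were higher by 5.37, whose part in these 4 rises was not tested.

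The ERSE stood in the promoter windows of 20 measured genes, of which 7 rose and 4 fell (35% and 20%, against 19.3% and 18.9% of all 14453 measured genes with a window). All 7 that rose are on the list of 37. Among the 11 others limma called 0 higher, also 0 at an unadjusted p below 0.05, and 3 lower, with 5 lower at an unadjusted p below 0.05. These 3, named after their values were seen, were Adcy3, an adenylyl cyclase that fell by 1.54, Alg12, a mannosyltransferase of the ER that fell by 0.42, and Ptgdr2, a prostaglandin receptor that fell by 0.26. The median of the 11 was -0.21, against -0.06 over those 14453. Derl3, a Derlin of the ER, was among the 11 and differed by 0.23 without a call. A match to the letters is not evidence of binding.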
